A study of Homo sapiens with 4 samples.

Results

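The genes described here are the bombesin-like peptide genes and their receptor genes in the human line NCIH838, which comes from a non-small-cell lung cancer. The members are 5 of the 58302 genes listed in the deposited tables, 2 peptide genes (NMB and GRP) and 3 receptor genes (NMBR, GRPR and BRS3). NMB was chosen because of its adjusted p in the comparison of dox with no dox, and the other members were taken by name because they complete the family. The difference of NMB between dox and no dox is therefore a description of how it was selected, and no test of it is given. The question asked of the family was whether these cells hold both peptide and receptor transcripts.

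RNA-seq was performed on MIB1-iKO cells under basal BMP signaling, with 2 libraries from cells without doxycycline (no dox) and 2 from cells given doxycycline (dox) at 0.5 μg/mL, all at day 3. In these cells a piggyBac construct carries a guide RNA against MIB1, which encodes the ubiquitin ligase Mind Bomb 1, with a puromycin resistance gene and a Cas9 gene that doxycycline turns on through a reverse tetracycline transactivator. All 4 libraries carry the construct, so only the addition of dox separates the groups. The study's methods describe MIB1-iKO lines as single-cell clones, and which clone and which guide these libraries came from is not given in the sources used here. No library of cells given dox without a MIB1 guide was analysed here, so effects of dox itself and of MIB1 loss cannot be told apart. The labels number the replicates without saying whether they were separate cultures. The study describes 2 biological replicates per condition for this experiment, and what separated them is not given in the sources used here. The p-values therefore measure the spread between these libraries alone.

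Neuromedin B, the product of NMB, and gastrin-releasing peptide, the product of GRP, are the mammalian relatives of the frog skin peptide bombesin. Each is cut from a longer precursor in secretory granules and given an amidated C-terminal end that its receptor needs in order to recognise it. NMBR prefers neuromedin B and GRPR prefers gastrin-releasing peptide, while BRS3 is an orphan relative that binds neither peptide tightly. All 3 receptors couple mainly to Gq, which activates phospholipase C beta, releases calcium from internal stores and turns on protein kinase C. In the lung, gastrin-releasing peptide is known from pulmonary neuroendocrine cells, and in small-cell lung cancer bombesin-like peptides are known as growth factors that tumor cells make for themselves.

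The shared end of both peptides can be read in the coding bases of their genes. Shown here are the last codons of each mature peptide and its processing site, 10 codons or 30 bases 5′ to 3′ on the coding strand, which include the glycine codon that donates the amide and 2 codons for the basic residues where the precursor is cut. Capitals mark the bases that are identical between the genes, and the stretch spans exons 1 and 2 of 3 in both.
NMB: TGGGCcaccGGtCACTTcATGGGcAAgAAG
GRP: TGGGCggtgGGgCACTTaATGGGgAAaAAG
Of the 30 bases, 22 were identical, and 4 of the 10 codons were the same base for base. The NMB bases lie at chr15:84657329-84658005 on the minus strand and are in 2 of its 2 annotated coding transcripts, while the GRP bases lie at chr18:59220395-59225511 on the plus strand and are in 3 of 5 (GRCh38, GENCODE release 44, first and last base, with the intron between them).

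NMB (ENSG00000197696; chr15:84655129-84658563, minus strand, 1022 bases of exon) is a compact gene that overlaps no other annotated gene. It was the one member with more than 1 read. Its counts were 964 and 777 reads in no dox replicates 1 and 2, and 1185 and 1122 reads in dox replicates 1 and 2. Both dox libraries thus held more NMB reads than either no dox library before any scaling, although their total counts were smaller.

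In RPKM, the deposited level in which the authors scaled reads to gene length and to depth, NMB stood at 40.1 and 34.7 in the no dox libraries and at 76.1 and 60.6 in the dox libraries. The groups did not overlap, and the lower dox library was 1.51 times the higher no dox library. Replicates of a group differed less than that, by 1.16 times in no dox and 1.26 times in dox. The mean of the no dox libraries was 37.4 ± 3.82 RPKM and that of the dox libraries 68.3 ± 10.97 RPKM (SD, n = 2 each), a ratio of 1.82. In CPM, which scales reads by the total count alone and not by length, the means were 38.1 ± 2.03 and 70.1 ± 6.02 (SD, n = 2 each). Counting error alone gave 95% exact Poisson intervals of 36.4 to 40.0 CPM for the summed no dox reads and 67.1 to 72.8 CPM for the summed dox reads. In bulk samples like these, more cells that express a gene and more of its RNA per cell cannot be told apart.

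**Figure D1:**
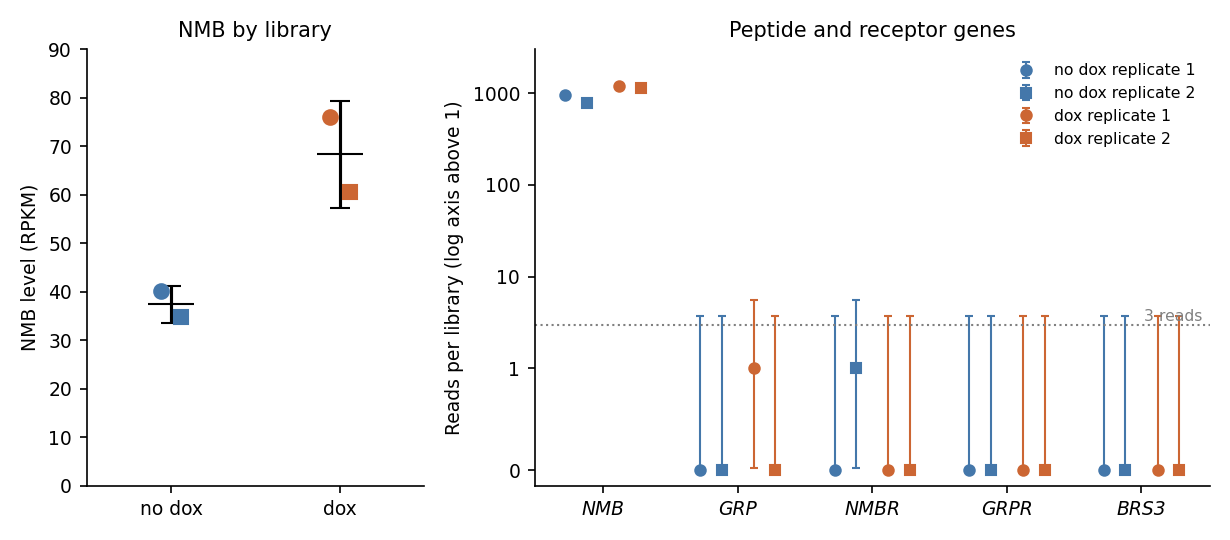
Left, NMB level in RPKM in each library (points), with the group mean and SD (bars, n = 2 each). Right, reads of the 5 members in each library on an axis that is logarithmic above 1 read, with 95% exact Poisson intervals and a dotted line at 3 reads. NMB lies between 777 and 1185 reads in every library, and the other members lie at 0 or 1 read.

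Across genes, NMB was among the more abundant transcripts. Ranked by RPKM among 19708 protein-coding genes, it was number 1956 and 2115 in the no dox libraries, above 90.1% and 89.3% of them, and number 1167 and 1334 in the dox libraries, above 94.1% and 93.2%. The fitted log2 fold change of NMB, dox against no dox, was 0.89 ± 0.14 (SE), a 1.85-fold difference, and 234 of the 16181 genes tested had a larger one. Selected for an adjusted p of 0.0243, NMB lay inside the threshold of 0.05 and below the 2-fold difference that a call also required, so it was not called. For orientation on that threshold, which the choice of NMB used, SMAD9 lay just inside at an adjusted p of 0.0265 (log2 fold change 2.20) and SRSF2 just outside at 0.0636 (log2 fold change -0.66).

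Of all genes tested, 6 were called, with an adjusted p no higher than 0.05 and a difference of 2-fold or more (0.0371%), 11 passed the adjusted p alone (0.068%), and in 19.0% both dox libraries lay above both no dox libraries, as they did for NMB. Nothing is read from these shares about NMB, since it was chosen on this contrast. MIB1, the gene the guide targets, fell from 598 and 588 reads in no dox to 90 and 59 in dox, with a log2 fold change of -2.58 ± 0.23 (SE) and an adjusted p of 0.000375 in limma's test. Its log2 fold change was -1.34 on log2(RPKM + 1) and -2.16 or lower in all other settings, and the call was lost on log2 RPKM, without a filter on low counts and with any 1 library left out. The total counts were 24398411 and 21207419 without dox and 15943025 and 17048990 with dox, and between 23529 and 24223 genes had at least 1 read in a library.

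GRP (ENSG00000134443; chr18:59220158-59230774, plus strand, 861 bases of exon) had 0 reads in both no dox libraries, 1 read in dox replicate 1 and 0 reads in dox replicate 2. That single read was worth 0.0774 RPKM. Over all 4 libraries the upper 95% exact Poisson limit for GRP was 0.0709 CPM. In RPKM, NMB was between 175 and 252 times the upper 95% exact Poisson limit of GRP in the same library. The second peptide gene of the family was thus at the edge of what this depth can register, with or without dox.

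NMBR (ENSG00000135577; chr6:142058330-142147122, minus strand), the receptor that prefers neuromedin B, had 0 and 1 reads without dox and 0 and 0 reads with dox. Its single read, in no dox replicate 2, was worth 0.0337 RPKM, and its upper 95% exact Poisson limit lay between 0.116 and 0.188 RPKM in a library and at 0.0709 CPM over all 4. NMB stood at between 185 and 426 times the limit of NMBR in the same library. Receptor messages are often rare, and NMBR expression at or under these limits could not be measured at this depth. Overlapping NMBR on the other strand is the processed pseudogene ENSG00000270983, which had between 149 and 296 reads in a library and shares no exon base with NMBR. NMBR-AS1, an antisense RNA that shares 218 exon bases with NMBR, had 0 reads in all 4 libraries.

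GRPR (ENSG00000126010; chrX:16123565-16153518, plus strand), the receptor that prefers gastrin-releasing peptide, had 0 reads in all 4 libraries. BRS3 (ENSG00000102239; chrX:136487947-136493780, plus strand), the orphan receptor, also had 0 reads in all 4. For each of them the upper 95% exact Poisson limit over 78597845 reads was 0.0469 CPM, and 3 reads in a library corresponded to between 0.123 and 0.188 CPM. These limits and intervals hold for counting error alone, since no molecular identifiers were used to collapse PCR copies. The lncRNA antisense to GRPR, ENSG00000238178, had 0 reads as well.

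The libraries therefore held transcripts of 1 of the 2 peptide genes and, at this depth, no more than 1 read of any of the 3 receptor genes. Of the 5 members, 3 had at least 1 read in some library and 1 passed the filter on low counts. NMB was the highest in every library, and no order can be given among GRP, NMBR, GRPR and BRS3, which did not differ beyond counting error. A count of 0 was common: 4550 of 19708 protein-coding genes (23.1%) had 0 reads in all 4 libraries, and 5152 (26.1%) had at most 1 read in sum.

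The promoters of the members differed in base composition. In the 250 bases before the RefSeq start (GRCh38.p14), NMB had 23 CG pairs, GRP and NMBR 21 each, GRPR 5 and BRS3 2, against a median of 11 over 35116 promoters. The share of G and C was 74.0% in NMB, 62.4% in GRP, 61.2% in NMBR, 50.8% in GRPR and 43.6% in BRS3, with a median of 58.0%. NMB thus had the most CG pairs of the family, and 74.2% of all promoters had fewer. The upstream edge of the NMB window is chr15:84658449, inside the GENCODE gene, whose 5′ end is 84658563. For the other members the RefSeq start is the GENCODE start. GRP and NMBR were nearly as rich, with fewer CG pairs in 69.8% of promoters, while their reads were at 0 or 1. Promoter methylation and binding were not measured in these libraries.

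An A and T run of the kind found in TATA boxes was looked for in the same windows, as TATAAA on either strand and as TTTAAA, which reads the same on both strands; the 2 motifs do not overlap in these windows. Each is shown within 30 bases of its own promoter, 5′ to 3′ on the strand of the gene, with the motif in capitals.
NMB: caggggcgcggaTTTAAAaggatcgaaggc
GRP: cccgggcttccaTATAAAgtaggggcccta
GRPR: ttttctacccacTTTAAAcctccagattct
The first base of the motif lay 31 bases before the RefSeq start in NMB (chr15:84658213-84658242, minus strand), which is inside the GENCODE gene. It lay 29 bases before the start in GRP (chr18:59220117-59220146, plus strand) and 18 before it in GRPR (chrX:16123535-16123564, plus strand). TTTAAA was present in 11.3% of all promoters of this length and TATAAA in 10.7%. NMBR and BRS3 held neither run in this window. A match is a string of letters and not a measured site, and GRP and GRPR held one while having 0 or 1 read.

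NMB sits among genes whose levels can be set beside its own. GENCODE lists 26 other genes within 250 kb of it, of which 12 had 0 reads in all libraries and 8 were tested. None of the 8 was called, none passed the adjusted p (the lowest was 0.705 in limma's test) and 0 had an unadjusted p under 0.05, with DESeq2 and edgeR also calling none. Their log2 fold changes ran from -0.71 to 0.29 with a median of -0.06, against a median of -0.00 over all genes tested. WDR73, the nearest at 786 bases from NMB, had 243 and 188 reads in no dox and 131 in each dox library, for a log2 fold change of -0.25 ± 0.20 (SE). On the other side SEC11A, which encodes a subunit of the signal peptidase that trims secreted proteins, lies 10975 bases away. Its mean level was 104 RPKM in both groups, with a log2 fold change of -0.00 ± 0.11 (SE).

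The other 6 tested neighbours lay farther from NMB than these. ZSCAN2 and ZNF592, zinc finger genes 27333 and 90029 bases away, had log2 fold changes of 0.22 ± 0.16 and 0.13 ± 0.23 (SE). Those of SCAND2P and UBE2Q2P1, both pseudogenes, were -0.18 ± 0.26 and 0.29 ± 0.50. EGLN1P1, a processed pseudogene with 18 and 17 reads in no dox and 8 in each dox library, had the lowest value at -0.71 ± 0.49, and the lncRNA ENSG00000256278 had -0.12 ± 0.64. ALPK3, singled out after its values were seen, had 0 reads in both no dox libraries and 5 and 6 reads with dox, too few to be tested.

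**Figure D2:**
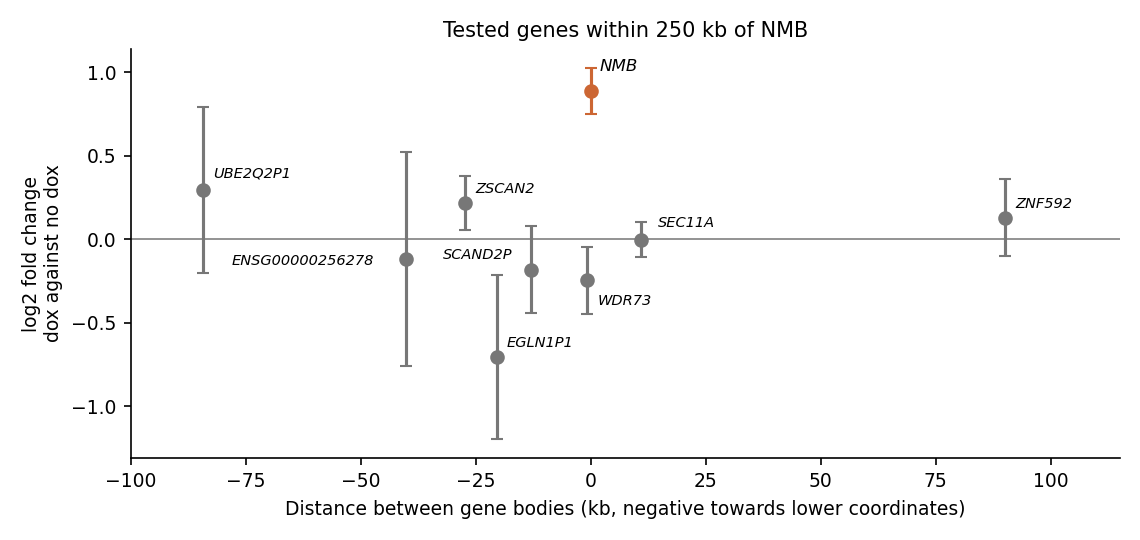
Fitted log2 fold change of dox against no dox, with its SE (bars), for NMB and the 8 tested genes within 250 kb, against the distance in kb between gene bodies. NMB is at 0.89, and the neighbours lie between -0.71 and 0.29.

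Genes with the profile most like that of NMB were found by the root mean square distance between log2 CPM values over the 4 libraries, each centred on its gene's mean, among the 12343 genes whose mean count reached 50. The median distance from NMB was 0.474. MAP3K15 was closest at 0.0408, with 82, 68, 99 and 91 reads in no dox replicates 1 and 2 and dox replicates 1 and 2. TMSB10P1 followed at 0.0432, a processed pseudogene whose reads may be shared with its parent TMSB10. The next were ENSG00000223343 at 0.0586, ENSG00000269399 at 0.0638 and ATG16L2 at 0.0643. These profiles share the same 4 libraries and their depths, and the likeness describes nothing but those 4 points.

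The genes that act on such peptides were taken by role, starting with maturation. Precursors are cut by proprotein convertases, trimmed by carboxypeptidases and amidated by PAM, and 8 of the 11 genes of this list had at least 10 reads in every library. CPE, the carboxypeptidase that removes the basic residues, was the highest, at 146 RPKM without dox and 151 with dox. PAM, the only enzyme known to make the C-terminal amide, had 39.5 and 42.8 RPKM without dox and 47.6 and 53.0 RPKM with dox. PCSK1, a convertase of the regulated secretory pathway, had 19.0 and 19.9 RPKM without dox and 15.7 and 14.5 RPKM with dox, while the related PCSK2 had 0 reads throughout. Transcripts for each step that yields an amidated peptide, cutting, trimming and amidation, were thus present beside NMB.

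None of the 9 maturation genes tested passed the adjusted p in limma, edgeR or DESeq2, and 2 had an unadjusted p under 0.05 in limma's test, as 9.28% of all genes tested did. PAM had a log2 fold change of 0.30 ± 0.12 (SE) with an adjusted p of 0.468, and PCSK1 had -0.34 ± 0.12 with an adjusted p of 0.376. For both, the dox libraries lay wholly on one side of the no dox libraries in RPKM, above for PAM and below for PCSK1. In log2 CPM, 3 of the 9 lay wholly above with dox, against 19.0% of all genes tested. PCSK7, a convertase of the constitutive pathway, had 0.40 ± 0.20 (SE; adjusted p = 0.576). The median log2 fold change of the list was 0.09, with 6 of 9 above 0, against 49.9% of all genes tested.

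Of 20 genes of the secretory granule and its release, 9 had at least 10 reads in every library. SNAP25, a protein of the fusion machinery, was the highest, at 72.8 RPKM without dox and 65.2 with dox. CHGA, the classical granule protein of neuroendocrine cells, had 4 and 6 reads in no dox and 3 in each dox library. The granule machinery was thus uneven, with some parts abundant and this granule protein near the limit of detection. Of 11 tested, 0 passed the adjusted p and 0 had an unadjusted p under 0.05 by limma, and edgeR and DESeq2 also placed none at an adjusted p of 0.05 or less. The median log2 fold change was -0.07. PTPRN, a granule membrane protein, had -0.28 ± 0.15 (adjusted p = 0.591), RAB27A, which helps granules dock, 0.26 ± 0.16 (adjusted p = 0.657), and SCG2, a granin with 13 and 8 reads in no dox and 10 and 19 in dox, 0.75 ± 0.51 (adjusted p = 0.702).

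Among 9 genes for peptidases that break down small peptides, 7 had at least 10 reads in every library. MME, which encodes neprilysin, the cell surface enzyme known for degrading bombesin-like peptides in the airway, had 7 and 6 reads in no dox and 1 and 0 in dox and was not tested. THOP1, which encodes thimet oligopeptidase, had 398 and 448 reads in no dox against 158 and 172 in dox. The mean level was 3.21 RPKM without dox and 1.71 RPKM with dox, and the groups did not overlap. The log2 fold change of THOP1, -0.88 ± 0.18 (SE), had an adjusted p of 0.150 in limma's test. DESeq2 gave THOP1 an adjusted p of 0.0143, the lowest of the settings that used all 4 libraries without a replicate block, which reached up to 0.613. NLN, a close relative of THOP1, had -0.23 ± 0.12 (adjusted p = 0.605), and ANPEP, an aminopeptidase, had -0.26 ± 0.14 (adjusted p = 0.608). The list had a median of -0.13 with 2 of 8 tested above 0, and in limma's test 0 passed the adjusted p while 1, THOP1, had an unadjusted p under 0.05.

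The signalling parts that a bombesin receptor would use were broadly present. Of 28 genes for G proteins, phospholipase C beta enzymes, calcium release channels, protein kinases and their regulators, 25 had at least 10 reads in every library and 25 were tested. GNAQ, which encodes the Gq alpha subunit itself, had 1.52 and 1.76 RPKM without dox and 2.02 and 1.95 RPKM with dox. GNA11, its near twin, had 2.88 RPKM without dox and 2.56 with dox, and ITPR1, a calcium release channel, 4.51 and 4.68. None of the 25 was called or passed the adjusted p in limma, edgeR or DESeq2, 1 had an unadjusted p under 0.05 in limma's test, and the median log2 fold change was 0.09 with 16 above 0. PLCB1, a phospholipase C beta gene, had 32 and 18 reads in no dox and 35 and 44 in dox, for a log2 fold change of 1.08 ± 0.36 (adjusted p = 0.366). GNA13 had -0.39 ± 0.19 (adjusted p = 0.550) and GRK3, a receptor kinase, -0.49 ± 0.25 (adjusted p = 0.586).

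**Figure D3:**
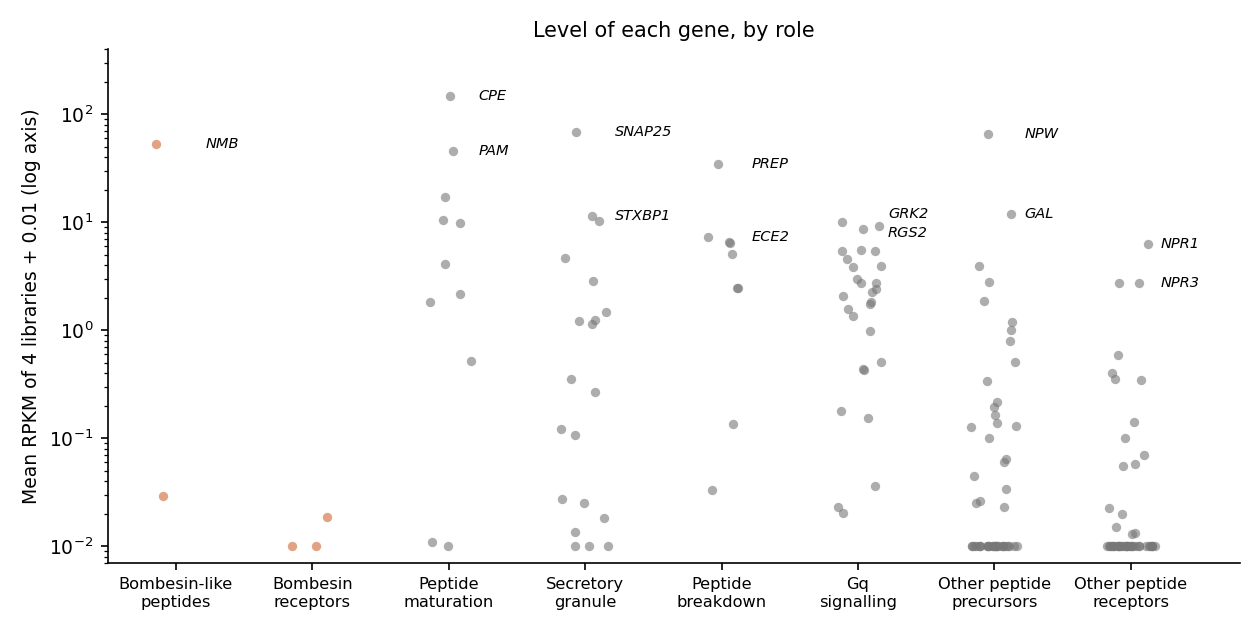
Mean RPKM over the 4 libraries plus 0.01, on a log axis, for each gene of the family and of the lists by role (points), with the 2 highest of a list named where above 0.05 RPKM. NMB lies beside the enzymes CPE and PAM, and the 3 receptor genes lie at the bottom of the axis with most other peptide receptor genes.

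The list of early response genes, which rise when Gq-coupled and many other receptors are activated, was read as a description of the cells and not of a bombesin receptor. Of 27 genes, 22 were tested, 0 were called and 0 passed the adjusted p in limma's test. An unadjusted p under 0.05 was found in 10, all higher with dox, and 4.68% of all genes tested had such a p and were higher with dox. Both dox libraries lay above both no dox libraries for 13 of the 22 (59.1%), against 19.0% of all genes tested, and the median log2 fold change was 0.31 with 18 above 0. The median was 0.49 without dox replicate 1 and 0.21 without dox replicate 2, and without the latter 2 genes had an unadjusted p under 0.05.

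CCN2, which encodes a matricellular growth factor, had 915 and 1011 reads in no dox and 929 and 1471 in dox. Its log2 fold change was 0.76 ± 0.15 (SE; adjusted p = 0.146), the smallest adjusted p of all 7 lists. Over the settings that used all 4 libraries without a replicate block, the adjusted p of CCN2 ran from 0.0143 in DESeq2 to 0.613. With the replicate number as a block, limma gave CCN2 an adjusted p of 1.36e-10. CCN1, its relative, had 0.53 ± 0.15 (adjusted p = 0.284), between 0.22 without dox replicate 2 and 0.82 without dox replicate 1. CXCL8, which encodes the chemokine interleukin-8, had 0.58 ± 0.15 (adjusted p = 0.228). Reads of CCN1 and CCN2 were more numerous in dox replicate 2 than in dox replicate 1, and the reverse was true of NMB.

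Other peptide systems showed the same sparseness. Of 51 genes for other peptide precursors, 27 had 0 reads in all libraries and 9 had at least 10 reads in every library. NPW, the precursor of neuropeptide W, was the one other precursor at the level of NMB, with 66.5 and 66.6 RPKM without dox and 63.5 and 63.7 RPKM with dox. Without dox both NPW values lay above both NMB values, and with dox the NMB values of 76.1 and 60.6 RPKM lay on either side of NPW. The next highest was GAL, the galanin precursor, at 10.9 RPKM without dox and 12.7 with dox.

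None of the 10 precursor genes tested passed the adjusted p or had an unadjusted p under 0.05 by limma, and edgeR and DESeq2 also placed none at an adjusted p of 0.05 or less. Their median log2 fold change was 0.21, with 6 above 0. NPW had -0.02 ± 0.12 (adjusted p = 0.971) and GAL 0.24 ± 0.19 (adjusted p = 0.742). GAST, the gastrin precursor, had 70 and 36 reads in no dox and 28 and 17 in dox, for -0.81 ± 0.41 (adjusted p = 0.589). UCN, ADM and EDN2, the precursors of urocortin, adrenomedullin and endothelin-2, had 0.21 ± 0.31, 0.25 ± 0.24 and 0.55 ± 0.50, with adjusted p-values of 0.882, 0.802 and 0.782.

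Of 50 genes for other peptide receptors, 33 had 0 reads in all libraries and 34 had at most 1 read in sum, as all 3 bombesin receptor genes did. Only 6 had at least 10 reads in every library. The highest were NPR1, a natriuretic peptide receptor, at 5.58 RPKM without dox and 6.84 with dox, NPR3, the natriuretic peptide clearance receptor, at 3.12 and 2.34, and PTH1R, the parathyroid hormone receptor, at 2.96 and 2.49. None of the 6 tested passed the adjusted p in limma, edgeR or DESeq2, 1 (NPR3) had an unadjusted p under 0.05 in limma's test, and 3 of the 6 lay above 0 with a median of 0.02. The log2 fold changes were 0.30 ± 0.16 for NPR1, -0.40 ± 0.14 for NPR3, -0.22 ± 0.23 for PTH1R, -0.24 ± 0.35 for NPR2 and 0.49 ± 0.38 for OPRL1 (SE), with adjusted p-values of 0.605, 0.390, 0.826, 0.883 and 0.742.

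**Figure D4:**
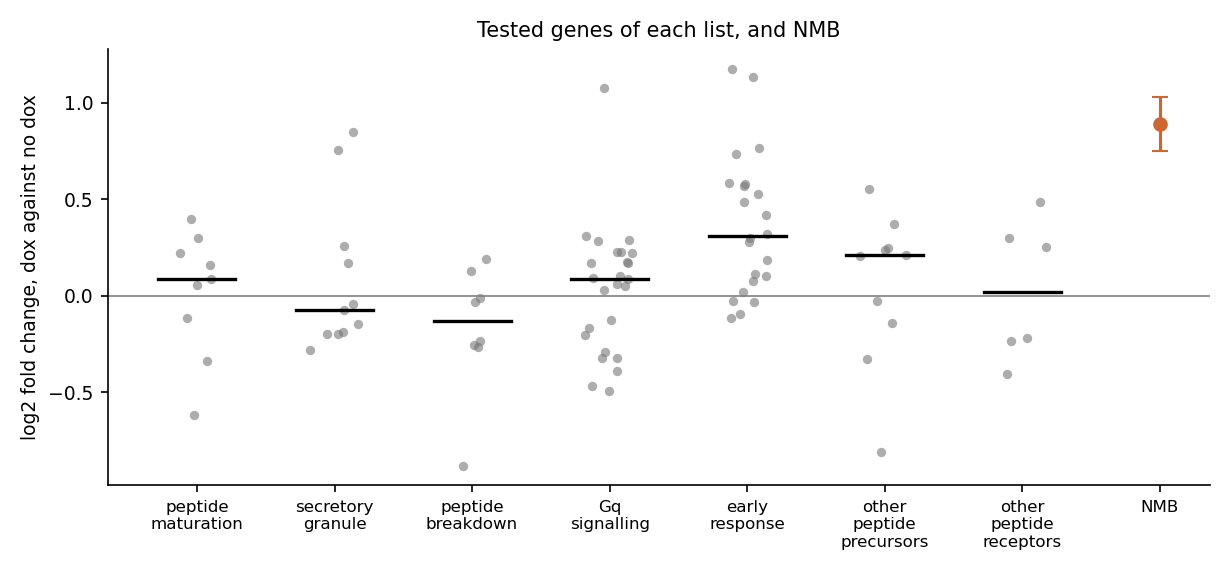
Fitted log2 fold change of dox against no dox for each tested gene of the 7 lists (grey points), the median of each list (black line) and NMB with its SE (orange). Medians run from -0.13 for peptide breakdown to 0.31 for early response, and NMB is at 0.89.

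Over the 7 lists, 91 of 196 genes were tested and 0 were called or passed the adjusted p in limma's test, while 15 had an unadjusted p under 0.05, 12 of them higher with dox, against 1501 of the 16181 genes tested (9.28%), 758 of them higher. DESeq2 called none but placed THOP1 and CCN2 at an adjusted p under 0.05, and edgeR called none. With the replicate number as a block in limma, 12 of the 91 passed the adjusted p and 1 was called. Of all 16181 genes tested, 1154 passed it in that fit and 78 were called.

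Markers of cell type were read in the same libraries, since GRP is known from neuroendocrine cells. Of the neuroendocrine markers described here, INSM1 and DDC had 0 reads in all libraries, NEUROD1 had at most 1 read in a library, and 3 had at least 10 reads in each. Those 3 were UCHL1, at 1992 RPKM without dox and 2008 with dox, ENO2, at 5.96 and 6.19, and SYP, at 0.578 and 0.577. The summed RPKM of the list ran from 1893 to 2103 without dox and from 1847 to 2182 with dox, nearly all of it UCHL1, so the groups overlapped. Of 9 epithelial markers, 7 had at least 10 reads in each library, among them EPCAM at 9.72 RPKM without dox and 10.6 with dox, while KRT19 had 0 reads. Of the 5 lung alveolar markers, none had 10 reads in each library, and NKX2-1, SFTPA1 and SFTPB had 0 reads, so the lung label of the line was not borne by alveolar genes. Of 8 markers of blood, vessel and stroma, 1 had at least 10 reads in each library, and the summed level of that list was between 0.299 and 0.887 RPKM in every library.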

How the data were processed

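According to the study's methods and the submitters' processing notes, the authors removed ribosomal reads, mapped single-end reads of 50 bases with GSNAP on GRCh38, and tallied those over exons with HTSeqGenie. The deposited counts are whole numbers per gene and not normalized. The RPKM values are the authors' own, scaled by gene model length and depth with a further factor for each library. The methods name RefSeq annotation release 106, whereas the deposited identifiers are from Ensembl. The kit used for these libraries and whether counting used strand are not given in the sources used here. Symbols and positions came from GENCODE release 44 (57532 of 58302 identifiers matched), and promoters from RefSeq (GRCh38.p14).

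Groups came from the sample labels. Genes kept by filterByExpr (16181) were scaled by library total, quantile-normalized and given voom weights, and the contrast of dox and no dox was fitted in limma 3.58.1 (R 4.3.3) with Benjamini-Hochberg adjustment over every gene in the fit. A call needed an adjusted p no higher than 0.05 and a log2 fold change of 1 or more in either direction. Levels per library are the deposited RPKM or CPM of the total count. Total counts ran from 15943025 to 24398411, so 3 reads were worth 0.123 to 0.188 CPM. Between libraries, chi-square per degree of freedom was 7.53 or more, so none repeated another. Alternatives were edgeR 4.0.16, DESeq2 1.42.0, TMM or library-size scaling, no filter beyond 1 read, a mean count of at least 50, log2(RPKM + 0.1) and log2(RPKM + 1), the replicate block and leaving out each library, and the test on the remaining 3 libraries was added after seeing the data. The fit was tested on simulated data.

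The members and gene lists were chosen with earlier results of these data known, and the lists were typed from memory. One marker on them is not reported here. Genes named are the members, MIB1, in each list the genes past a threshold or otherwise the 3 with the smallest unadjusted p, the 5 highest other precursors and receptors, every tested gene within 250 kb of NMB, and the 5 nearest profiles. CPE, PCSK2, SNAP25, CHGA, MME, GNAQ, GNA11, ITPR1 and ALPK3 were added for their levels after values were seen.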

Additional observations from a re-analysis of the deposited data

How the results depend on the processing

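NMB kept its direction in every setting. As both dox libraries lay above both no dox libraries in the contrast it was chosen on, no setting is a test of NMB. Its log2 fold change was between 0.85 and 0.90 over 9 alternatives and between 0.74 and 1.04 with 1 library left out, against an SD of 0.103 within groups on the log2 CPM scale, and the ratio of group means was 1.84 in CPM and 1.80 with TMM factors. Over all genes, 6 were called, and the same 6 genes by edgeR, voom with TMM, voom with library size and a mean count of at least 50. DESeq2 called 2, both among the 6, of which 3 had no adjusted p after its filtering. No gene was called without a filter (2092 at an unadjusted p under 0.05), on log2(RPKM + 0.1) (1442) or on log2(RPKM + 1) (1438), and 0 with any 1 library left out, where 833 to 1042 had an unadjusted p under 0.05 and the lone library is assumed to vary like the others. MIB1 then had adjusted p-values of 0.721 to 0.896, and 0.613, 0.108 and 0.0962 in the 3 settings before. DESeq2 and limma differ in which genes they adjust over, and the cause of the other changes was not tested.

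With the replicate number as a block, 78 genes were called (41 higher, 37 lower) and 1154 passed the adjusted p alone, against 11. What same-numbered libraries share is not labelled, and with 2 pairs, whether they share more than a number was not tested. Their deviations had r = 0.164 across 16181 genes, and the main fit leaves the number out. Same-numbered libraries were the closest, with a chi-square per degree of freedom of 7.62 and 7.53, against 8.67 and 11.8 within groups and 14.4 for both other pairs. NMB had 0.90 in that fit. In the lists 12 of 91 genes passed the adjusted p there, 8 of them among the 22 early response genes, and 1, DUSP6, was called (chosen after its values were seen). Of the genes named, the log2 fold changes of PAM, PCSK1, THOP1, CCN2, CCN1, CXCL8 and NPR3 passed the adjusted p, at 0.000371, 0.00188, 3.01e-05, 1.36e-10, 1.32e-13, 5.78e-05 and 0.0227.

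Some values near 0 turned sign. SEC11A was at 0.0040 by DESeq2 and 0.0059 with library-size scaling, and ENSG00000256278 at 0.0311 with TMM and 0.0213 with library size. With 1 library left out the ranges were -0.0613 to 0.0583 for SEC11A, -0.70 to 0.54 for ENSG00000256278, -0.65 to 0.19 for NPR2, -0.47 to 0.0155 for PTH1R, -0.0534 to 0.59 for UBE2Q2P1, -0.38 to 0.0237 for SCAND2P and -0.0644 to 0.31 for ZNF592. List medians near 0 turned too: the granule list was at 0.12 without dox replicate 1 and the maturation list at -0.04 without dox replicate 2, and without a filter the other precursors were at -0.08 (24 genes). Over all libraries depth leaves levels of up to 0.0469 CPM for GRPR and BRS3 and 0.0709 CPM for NMBR within counting error.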
